A study of Mus musculus with 22 samples.

Results

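Resting NIH/3T3 cells, an immortalized line of mouse embryo fibroblasts, were compared with the same cells after 6 h of renewed serum. The comparison takes 4 of the 22 RNA libraries of the study, 2 at rest and 2 after serum, chosen by the group names of their columns and by no measured value, and covers all 11208 genes of the deposited table of normalized counts. All 4 came from the line with an empty vector (EV): a stably integrated doxycycline-inducible construct that carries no E2F1 insert. Every group used here was first held for 48 h in medium with 0.25% heat-inactivated fetal bovine serum. The resting group (0 h) was collected at the end of that time, and the serum group received 10% of the same serum for 6 h. For comparison, the EV line given 10% serum for 2 h or 12 h, and the EV line given 500 ng/ml doxycycline for 6 h with no serum addition named, were used with 2 libraries each. The labels number these libraries as replicates without saying that they came from separate cultures, so the p-values below measure only the spread between libraries, which may be technical. RNA was taken from whole cultures, so fewer cells of a kind and less RNA per cell cannot be told apart.

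Fibroblasts deprived of serum leave the cell cycle and stop in a reversible resting state. Serum brings platelet-derived growth factor and lipid mediators, which act through receptors at the cell surface and the ERK cascade. Transcription factors already present in the cell, among them SRF, first switch on immediate early genes. Their products and newly made growth factors then drive a second wave in which the cell builds ribosomes and cytoskeleton before cyclins and E2F factors start DNA replication. Cells a few hours into serum are in that interval before replication.

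Expression values below are normalized counts, given as replicate 1 and then replicate 2 of a group. Changes are differences of log2(value + 1) with their standard error (SE) from limma, which shared 1 estimate of the spread over all 22 libraries. A gene is said to rise or fall only where its Benjamini-Hochberg adjusted p was at most 0.05. On this scale the change of weakly expressed genes is understated. Totals per library ran from 34680926 to 35600629 at 0 h and from 40132639 to 41407438 at 6 h of serum. All 12 fibroblast markers were in the table, and 2 of them rose while 5 fell. The table held none of the listed epithelial, endothelial or adipocyte markers, 1 of 8 leukocyte markers (Csf1r, at 154 and 229 at 0 h and 449 and 626 at 6 h) and 2 of 6 neural markers (Map2 and Tubb3). Map2 was at 690 and 503 at 0 h and 210 and 487 at 6 h, and Tubb3 is given among the genes highest at 6 h. The lowest mean of a gene in the table was 99.6, so absence from it does not show that a marker was not expressed. The listed epithelial marker Krt8 is outside it, and the authors' deposited table for 6 h of serum gives Krt8 as higher. Replicate 2 stood above replicate 1 in 50 of 50 genes of the G2/M list at 0 h and in 49 of 50 at 6 h of serum, against 5812 and 5524 of all 11208 genes.

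At 6 h of serum 7563 of 11208 genes differed from rest (67.5% of those tested). Of these, 4093 rose (36.5%) and 3470 fell (31.0%). At least a 2-fold change was estimated for 1197 of the rises (10.7% of all genes) and 1311 of the falls (11.7%). The median log2 change over all genes was 0.03. The split depended on scaling: the sum of normalized counts was 16.0% larger at 6 h than at 0 h. When library totals were made equal, 2914 genes rose and 4772 fell, with the median of all genes at -0.18, and under quantile normalization it was 3572 higher and 3611 lower. These percentages are the background against which each gene group below is read. Of the 246 genes named here, 84 have exons that overlap those of another gene in GENCODE M21, and for 28 that gene is in the table too. The use of strand in counting is not given in the sources used here, so the values of such genes are uncertain. Among the genes with the largest changes this holds for Ankrd44, Arhgap20, Ccn2, Dbp, Eva1a, Fgf2, Mturn, Rgs16 and Ypel1, and below for Plxna4 and Gfra1.

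The EV line given doxycycline for 6 h was a second control, collected at the same hour as the serum group, whose libraries differ from those of 0 h. Against it, 7376 genes differed at 6 h of serum (65.8%), 4014 higher (35.8%) and 3362 lower (30.0%). Between these doxycycline libraries and 0 h limma called 15 genes, all 15 higher.

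Among the 12 genes with the largest rises, 11 are described here. Fgf2 (ENSMUSG00000037225.13, chromosome 3, 37348346 to 37410108), a fibroblast growth factor, went from 164 and 74 to 3775 and 4521, an estimated log2 change of 5.22 (SE 0.32, adjusted p 1.37e-10). Ccn2, the matricellular protein also called connective tissue growth factor, went from 539 and 1298 to 22091 and 37168, an estimated log2 change of 5.10 (SE 0.36, adjusted p 8.57e-10). In both genes the 6 h libraries lay far above the resting libraries, although the resting libraries differed from each other by more than 2-fold. Adam12, a membrane metalloprotease, changed by 4.95 (SE 0.24, adjusted p 9.7e-12) and Rgs16, which shortens G protein signals, by 5.61 (adjusted p 2.87e-08). Actg2, an actin of smooth muscle, was at 30 and 18 at rest and 1788 and 1380 at 6 h. Several of the 11 were almost undetected at rest, and a fold change would be unreliable for them. The lowest mean of a gene over all libraries was 99.6. Such genes are therefore in the table only through groups where they were higher, serum at 6 h among them. Tnnt2, a troponin of the contractile apparatus, stood at 2 and 0 at 0 h and 291 and 516 at 6 h. U90926 stood at 3 and 7 and then at 746 and 432, and Eva1a at 4 and 13 and 417 and 426. Anxa8, an annexin that binds membranes in the presence of calcium, was at 9 and 7 and 348 and 547, and Cck, the precursor of the peptide cholecystokinin, at 21 and 4 and 499 and 430. Fibcd1, a receptor for acetylated sugars such as chitin, was at 3 and 42 at rest, where its libraries disagreed, and at 843 and 1617 after serum. In all 11 the doxycycline libraries stayed below both 6 h serum libraries.

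The 12 genes with the largest falls included those of the receptors Agtr2 and Prokr1, of the transcription factor Osr2 and of the clock factors Hlf and Dbp. Agtr2 (ENSMUSG00000068122.10, chromosome X, 21484544 to 21489164), the type 2 receptor for angiotensin, dropped from 1427 and 734 normalized counts to 5 and 7, an estimated log2 change of -7.21 (SE 0.36, adjusted p 1.22e-11). Osr2, a zinc finger factor of mesenchymal development, dropped from 2028 and 1561 to 32 and 15, an estimated log2 change of -6.28 (SE 0.26, adjusted p 2.08e-12). The receptor for prokineticins Prokr1 was at 383 and 223 at rest and 7 and 2 at 6 h. All 3 were nearly absent after serum. Their 6 h doxycycline libraries were at 1376 and 696 for Agtr2, 1506 and 1069 for Osr2 and 450 and 231 for Prokr1. Both doxycycline libraries of each gene lay far above both serum libraries. Cdo1, which breaks down cysteine, changed by -5.42 (adjusted p 1.14e-10). Mturn changed by -4.58 (adjusted p 2.08e-12), Ypel1 by -4.54 (adjusted p 8.9e-11) and Ankrd44 by -4.45 (adjusted p 2.06e-13). Bmf, which promotes apoptosis by binding BCL2 family proteins, changed by -4.72 (adjusted p 5.81e-08), from 803 and 586 to 14 and 44. Arhgap20, a GTPase activating protein, was at 237 and 189 at rest and 0 and 12 at 6 h. For Ranbp3l the resting libraries themselves differed, at 457 and 73, and the 6 h libraries were at 10 and 0. The clock genes Hlf and Dbp complete the 12 and are described with the circadian clock.

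**Figure D1:**
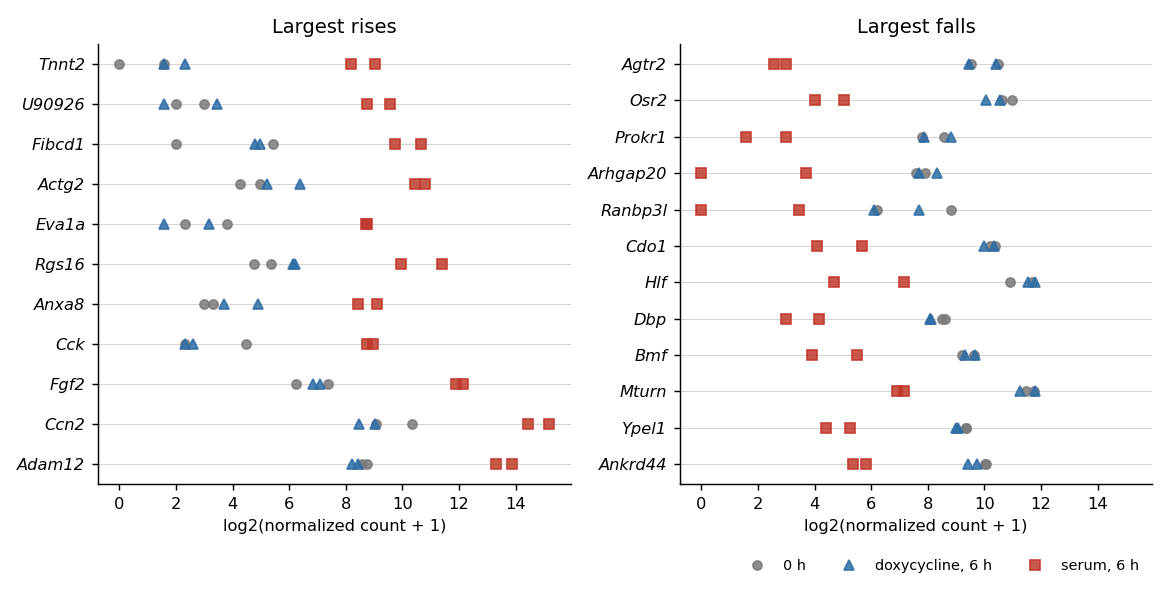
The 11 described genes with the largest rises (left) and the 12 with the largest falls (right) at 6 h of serum, with log2(normalized count + 1) of each library on the horizontal axis: grey circles for 0 h, blue triangles for 6 h of doxycycline and red squares for 6 h of serum, 2 libraries a group. In each gene the red squares lie apart from the grey circles, and the blue triangles are nearer to the grey circles than to the red squares.

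The immediate early factors had largely receded by 6 h, and some were below their resting level. Of 27 measured immediate early genes, among them members of the AP-1, EGR, NR4A and KLF families and genes such as Myc and Ier3, 16 rose and 5 fell against rest, with a median log2 change of 0.81 (0.46 without replicate 1 of 0 h). Fosl1, the AP-1 subunit FRA-1, went from 120 and 222 at 0 h to 1873 and 1633 at 6 h, an estimated log2 change of 3.41 (SE 0.29, adjusted p 9.57e-09). Fos itself was at 145 and 91 at 0 h and 139 and 60 at 6 h (log2 change -0.33, adjusted p 0.53), so its libraries overlapped with rest. The zinc finger factors Egr1 and Egr3 fell, Egr1 from 3313 and 3708 to 1183 and 752 (log2 change -1.89, adjusted p 8.33e-07) and Egr3 from 769 and 1211 to 359 and 139 (log2 change -2.11, adjusted p 4.1e-05). Under doxycycline Egr1 was at 2242 and 1579, between rest and serum (log2 change against rest -0.90, adjusted p 0.34). The orphan nuclear receptor Nr4a1 (2.14), Ier3 (1.88), Klf9 (1.76) and Myc (1.17) were among the rises. Tested directly against the 2 h serum libraries, 22 of 27 members were lower at 6 h and 1, Klf9, was higher. Over all genes 48.5% differed between 6 h and 2 h of serum (5440 genes), with 24.3% higher (2722) and 24.3% lower (2718). With equal totals 1793 genes were lower than at 2 h.

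Many genes of ERK feedback were above rest. Of 20 measured genes, inhibitors of the pathway and the ERK-induced genes Etv4, Etv5 and Lif, 13 rose, the last 3 among them, and 4 fell (2 without replicate 2 of 6 h), with a median log2 change of 0.79. Dusp6, a phosphatase that removes the activating phosphates from ERK, went from 1585 and 1912 to 10081 and 7472, an estimated log2 change of 2.32 (SE 0.18, adjusted p 2.72e-09). Dusp4, a related phosphatase of the nucleus, changed by 3.35 (adjusted p 8.6e-05), Dusp5 by 2.21, and the transcription factor genes Etv4 and Etv5 by 1.72 and 1.28. The cytokine Lif changed by 2.94. On the other side Dusp8 (-0.80), Spry1 (-0.68) and Spred3 (-0.61) fell, while Dusp1 was at -0.76 with an adjusted p of 0.087. Against 2 h of serum 13 of the 20 were lower at 6 h and 0 higher. Against 12 h 6 were higher (30.0%) and 0 lower, beside 20.6% higher and 19.3% lower over all genes.

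Receptors for serum factors moved in both directions, with more falls than rises. Among 32 measured receptors for growth factors, hormones and lipid mediators, 15 fell and 9 rose, with a median log2 change of -0.21. The median was -0.39 without replicate 1 of 6 h, -0.42 with equal totals and -0.36 under quantile normalization. Pdgfra, the alpha receptor for platelet-derived growth factor, dropped from 71387 and 57591 normalized counts to 8469 and 5245, an estimated log2 change of -3.27 (SE 0.19, adjusted p 1.08e-10). Both 6 h libraries were also below those of 2 h and 12 h. Pdgfrb (-0.91), the lysophosphatidic acid receptors Lpar1 (-0.98) and Lpar4 (-2.90), the sphingosine phosphate receptor S1pr3 (-1.02), Fgfr1 (-1.24) and the endothelin receptor Ednra (-3.57) fell as well. Rises came from Plaur, the receptor for urokinase, which went from 791 and 1002 to 16687 and 13641 (log2 change 4.08, adjusted p 5.55e-12), and from Tnfrsf11b (3.16), the decoy receptor osteoprotegerin.

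Genes of secreted signals were raised at 6 h. Of 27 measured cytokines, growth factors and prostaglandin enzymes 17 rose and 5 fell, with a median log2 change of 1.20. The EGF receptor ligand Ereg went from 231 and 417 to 6438 and 3019, an estimated log2 change of 3.82 (SE 0.41, adjusted p 1.95e-07), and its relative Hbegf changed by 2.92. Ptgs2, the inducible cyclooxygenase, went from 4606 and 6123 to 41913 and 41625, an estimated log2 change of 2.98 (SE 0.34, adjusted p 4.16e-07). Il11 (2.85), Vegfa (2.41), Pdgfa (2.38) and Csf1 (2.14) rose too. The angiopoietin gene Angpt1 (-3.68), the neuregulin gene Nrg1 (-1.87) and Igf1 (-1.65) fell. Most of the list had been higher at 2 h of serum, where 20 of the 27 exceeded their 6 h level, and 2 were below it.

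The activin and TGF-beta pathway showed rises of the ligand genes Inhba and Tgfb1 and of several inhibitors and targets, together with falls of the receptor genes Tgfbr2, Tgfbr3 and Acvr2b. Among 33 measured members 21 rose and 6 fell (median 0.56), and with equal totals 10 fell. Inhba, which encodes the subunit of activin A, went from 678 and 723 to 10089 and 10955, an estimated log2 change of 3.91 (SE 0.18, adjusted p 5.55e-12). This was -3.60 on the log2 scale against the 2 h libraries, at 131085 and 123956. Smad7, the inhibitory SMAD, went from 417 and 442 to 3602 and 4047 (log2 change 3.15, adjusted p 8.46e-13), and Pmepa1, which also restrains SMAD signalling, changed by 4.07. Tgfb1 (1.69), the latency protein gene Ltbp2 (3.71), Skil (2.47) and Id1 (2.71) rose. The receptor genes Tgfbr2 (-1.85), Tgfbr3 (-1.28) and Acvr2b (-0.94) fell, as did the signal transducer Smad3 (-0.78), while Tgfbr1 (0.44) and Bmpr2 (0.39) rose a little.

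Genes of the actin cytoskeleton that SRF and its cofactor MRTF are known to control rose nearly without exception. Of 31 measured members 30 rose and 0 fell, with a median log2 change of 1.44, and equal totals (28 and 0) and quantile normalization (27 and 1) gave nearly the same counts. Acta2, the smooth muscle actin of contractile fibroblasts, went from 6729 and 8028 to 66721 and 65475, an estimated log2 change of 3.17 (SE 0.14, adjusted p 2.77e-12). Fhl1, a LIM protein of muscle, went from 71 and 60 to 2069 and 1866, an estimated log2 change of 4.89 (SE 0.55, adjusted p 3.49e-07). Myl9 (2.71), the crosslinker Actn4 (2.14), Myh9 (1.64), Vcl (1.63) and Actb (1.46) rose, and Zyx was at 0.00 (adjusted p 0.975). Against 12 h of serum 29 of 31 were higher at 6 h, and 0 lower. Over all genes 39.9% differed between 6 h and 12 h (4472), with 20.6% higher at 6 h (2308) and 19.3% lower (2164). Against 2 h, 3 of the list were higher and 8 lower.

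The site that SRF binds is the CArG box. Promoter windows of 300 bases, from 250 before to 50 after each RefSeq gene start in GRCm38.p6, were searched for the CArG box on both strands. It was present in 535 of 32851 windows of all genes (1.63%) and in 8 of 32 windows of the 27 list members that had one. Because the list was made of genes known as SRF and MRTF targets, this share is a description. It is no test and not evidence of binding. The windows below show the box in capitals for 4 members that rose, with up to 20 bases on each side, in the direction of the gene.
Actg1, chr11:120348556-120348605, gene on the - strand: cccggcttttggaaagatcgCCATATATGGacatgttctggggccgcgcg
Vcl, chr14:20929151-20929200, gene on the + strand: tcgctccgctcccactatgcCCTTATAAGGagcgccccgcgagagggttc
Myl9, chr2:156775283-156775332, gene on the + strand: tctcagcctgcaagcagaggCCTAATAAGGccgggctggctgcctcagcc
Cnn2, chr10:79988524-79988573, gene on the + strand: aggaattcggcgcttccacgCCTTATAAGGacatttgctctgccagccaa
Cytoplasmic actin Actg1 went from 36304 and 54084 to 116824 and 123473 (log2 change 1.44, adjusted p 8.06e-08). The focal adhesion protein gene Vcl went from 8081 and 8524 to 22699 and 29231, and Cnn2, a calponin, from 16194 and 19006 to 40709 and 40697 (log2 change 1.21). Myl9, a regulatory light chain of myosin, went from 188 and 241 to 1415 and 1391. In each of the 4, both 6 h libraries were above both resting libraries.

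Targets of the coactivator YAP and its partner TEAD held a pair of large rises and many smaller ones. Of 18 measured, 11 rose and 1 fell, with a median log2 change of 0.47, against 9 and 4 with equal totals. Beside Ccn2, its relative Ccn1 went from 3366 and 5576 to 77159 and 53967, an estimated log2 change of 3.90 (SE 0.32, adjusted p 5.26e-09). Dlc1 rose (1.46), as did Amotl2 (0.99) and Lats2 (0.54), which restrain YAP, and Rbms3 fell (-1.99). Integrins and focal adhesion genes rose in 20 of 36 cases and fell in 7. Among the rises were Itgb3 (2.24), the syndecan Sdc4 (2.01) and the fibronectin receptor subunit Itga5 (1.72). The adaptor gene Pxn (-0.65), Tns2 (-1.55) and Itga11 (-1.29) were on the falling side.

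Matrix genes as a group did not stand out in their counts. Of 57 collagens, laminins and other matrix genes 18 rose and 17 fell (11 without replicate 1 of 0 h), shares of 31.6% and 29.8%, near the 36.5% higher and 31.0% lower over all genes, and the median of 0.04 turned to -0.17 with equal totals and -0.13 under quantile normalization. Tnc, the matrix protein tenascin C, went from 12318 and 15002 to 171859 and 146569, an estimated log2 change of 3.55 (SE 0.17, adjusted p 1.04e-11). Fibrillar collagen III went the other way, with Col3a1 dropping from 193386 and 186691 to 47215 and 35990, an estimated log2 change of -2.20 (SE 0.19, adjusted p 1.24e-08). At 2 h Col3a1 stood at 142180 and 185112 (log2 change against rest -0.23, adjusted p 0.295). Basement membrane collagens Col4a1 (2.46) and Col4a2 (1.98) rose, while the basement membrane linker Nid2 (-2.99), Ogn (-2.26), Aspn (-2.29) and Spp1 (-1.85) fell. Col1a1 rose (0.75), and Col1a2 was at -0.14 (95% interval -0.44 to 0.16, adjusted p 0.409) although both chains form collagen I.

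Proteases and their inhibitors also had shares near those of all genes, with 13 of 35 higher (37.1%) and 12 lower (34.3%), and a median of 0.03 that was -0.18 with equal totals and -0.16 under quantile normalization. Timp1, an inhibitor of metalloproteases, went from 2793 and 2999 to 36970 and 39676 (log2 change 3.73, adjusted p 2.9e-14). The plasminogen activator Plau (1.98), the hyaluronan receptor Cd44 (2.45) and the hyaluronan synthase Has2 (1.49) rose. Of the proteases that cleave large proteoglycans, Adamts1 dropped from 27928 and 20351 to 1465 and 1768 (log2 change -3.89, adjusted p 5.96e-12) and Adamts5 from 13864 and 10549 to 758 and 1208 (log2 change -3.66, adjusted p 1.94e-11). Both were higher at 6 h than at 2 h, by 0.63 and 2.37 (adjusted p 0.00726 and 1.68e-08).

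The machinery that makes ribosomes was raised in nearly all of its measured genes. Of 60 genes of ribosome biogenesis and RNA polymerase I 58 rose and 2 fell, with a median log2 change of 1.51, the highest median of the 31 lists when all libraries were used. The list of SRF and MRTF targets had the higher median without replicate 2 of 0 h (1.63 against 1.54) and without replicate 1 of 6 h (1.48 against 1.43). Rrp12, a factor of ribosome assembly and export, went from 856 and 813 to 5019 and 5108, an estimated log2 change of 2.60 (SE 0.14, adjusted p 2.34e-11). Nop2, an rRNA methyltransferase, went from 2035 and 1710 to 9421 and 7781 (log2 change 2.20, adjusted p 1.43e-10), and nucleolin Ncl changed by 1.51. The exceptions were Ddx10 (-0.96, adjusted p 2.39e-09), from 4073 and 3931 to 2095 and 2025, and Polr1c (-0.38). Part of the list had been higher at 2 h, as 25 of 60 were lower at 6 h and 4 higher. The genes of the ribosomal proteins themselves did not follow: 2 of 48 rose and 17 fell, with a median of -0.20. The count of falls was 42 with equal totals, 44 under quantile normalization, 5 without replicate 2 of 0 h and 11 without replicate 1 of 6 h. Many of these genes have processed pseudogenes that can share reads with them, so single values are uncertain.

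Other genes for protein synthesis and turnover rose as well. Aminoacyl-tRNA synthetases, which load tRNAs with amino acids, rose in 20 of 22 cases and fell in 0 (median 1.25), with Tars at 1.89 and Nars at 1.81. Against 2 h of serum 12 of them were higher at 6 h. Carriers and ports of nuclear transport, translation factors and helicases rose in 33 of 35 cases (median 0.84), among them the GTPase Ran (1.25), its exchange factor Rcc1 (1.70) and the initiation factor subunit Eif3b (1.50). Proteasome genes rose in 32 of 35 cases (median 0.76), with Psmd14 at 1.24, whereas Psme1, a subunit of the interferon-inducible activator, fell (-0.64) and its partner Psme2 was at -0.21 (adjusted p 0.0611).

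**Figure D2:**
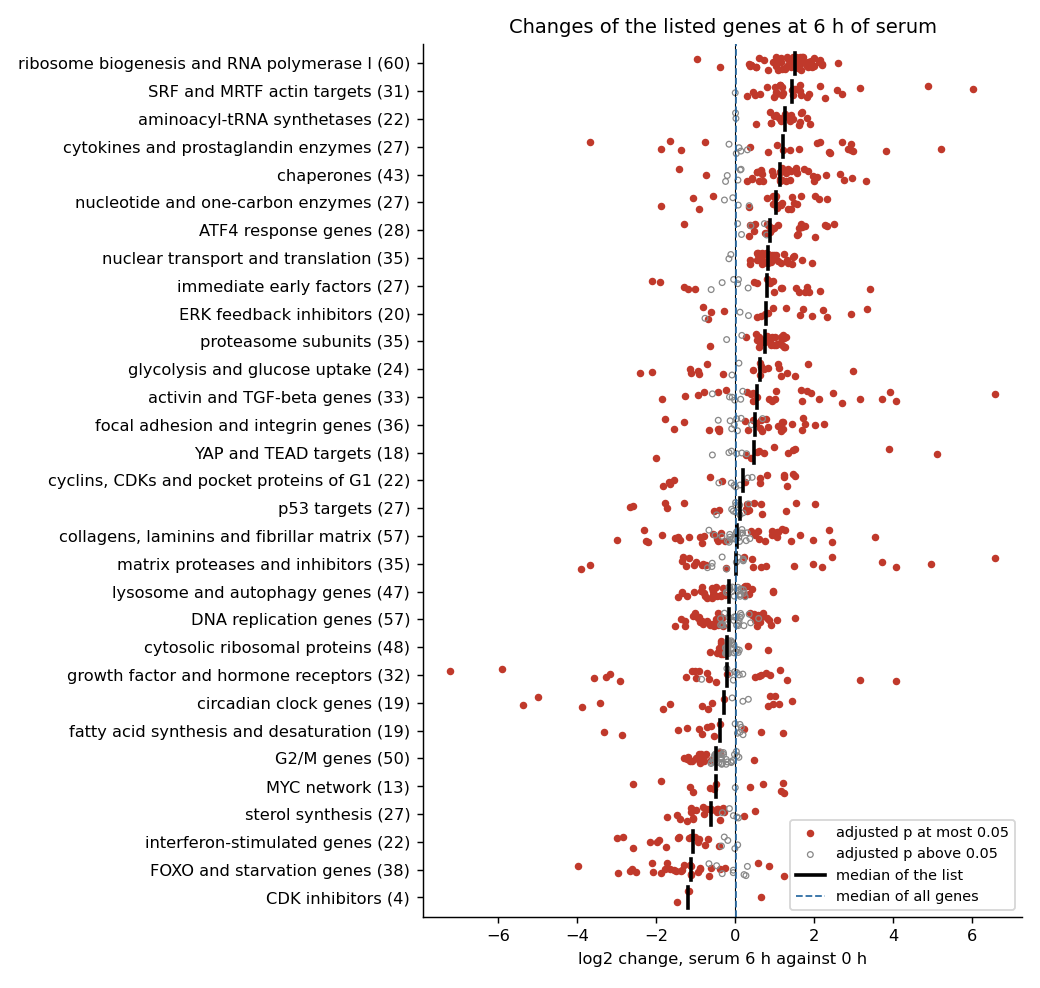
Log2 change at 6 h of serum against 0 h (horizontal axis) for the measured members of 31 gene lists, 1 point a gene, with the number of members in brackets; filled points had an adjusted p of at most 0.05, black bars mark the median of a list and the dashed line the median of all genes. Ribosome biogenesis (1.51) and SRF and MRTF targets (1.44) have the highest medians. Interferon-stimulated genes (-1.06), FOXO and starvation genes (-1.11) and the 4 CDK inhibitors (-1.18) have the lowest. Without replicate 1 of 6 h the order of these lowest lists changed, with medians of -1.16, -0.94 and -0.84. Under quantile normalization sterol synthesis (-0.83) lay below interferon-stimulated genes (-0.68).

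Chaperones of the endoplasmic reticulum were a group in which many members had their maximum at 6 h. Of 43 measured chaperones 36 rose and 2 fell (median 1.14, with 4 falls at equal totals), and the 10 largest rises were all of proteins of the endoplasmic reticulum. Sdf2l1 went from 438 and 541 at 0 h to 3409 and 6990 at 6 h, an estimated log2 change of 3.32 (SE 0.22, adjusted p 3.94e-10). Hyou1 went from 4668 and 4916 to 28295 and 48449 (log2 change 2.95, adjusted p 4.63e-11), and Creld2 from 1592 and 1811 to 9046 and 14454 (log2 change 2.75, adjusted p 1.4e-10). Hspa5, the chaperone BiP, went from 25674 and 29493 to 108208 and 172124 (log2 change 2.31, adjusted p 1.28e-10). In all 4 replicate 2 was well above replicate 1 at 6 h, yet replicate 1 alone exceeded every library of 0 h, 2 h and 12 h.

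A gene was counted as highest at 6 h when it passed the threshold against 0 h, 2 h and 12 h of serum, both 6 h libraries lay above all 6 others, and its 6 h mean was at least 200. These 3 tests share the 6 h libraries. Sdf2l1, for example, stood at 1111 and 1003 at 2 h and 1740 and 2016 at 12 h, and Hspa5 at 91704 and 91898 and 44448 and 44970. In all, 373 genes met this (3.33% of those tested), and 361 met the reverse, lowest at 6 h with a mean of at least 200 at rest (3.22%). Without replicate 2 of the 6 h group the first count was 221. Of the 43 chaperones, 12 were highest at 6 h, namely Calr, Canx, Creld2, Dnajb11, Dnajc3, Hsp90b1, Hspa5, Hyou1, Manf, Pdia4, Pdia6 and Sdf2l1, and 10 without that library. All 12 encode proteins of the endoplasmic reticulum. Against 2 h and 12 h, Hyou1 was higher by 1.35 and 1.60 (adjusted p 2.55e-06 and 5.56e-07) and Manf by 1.14 and 1.62 (adjusted p 1.17e-06 and 3.03e-08). Chaperones of the cytosol spanned a wide range: Hspa8 changed by 0.29 (adjusted p 0.0116), Hsp90ab1 was at 0.13 (adjusted p 0.225) and Hspa1b at -0.24 (adjusted p 0.0809). The cytosolic chaperonin subunits Cct6a (1.39) and Cct3 (1.29) and mitochondrial Hspd1 (1.54) rose, beside 1.29 for Calr and 1.14 for Canx, and a difference between the compartments was not tested.

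**Figure D3:**
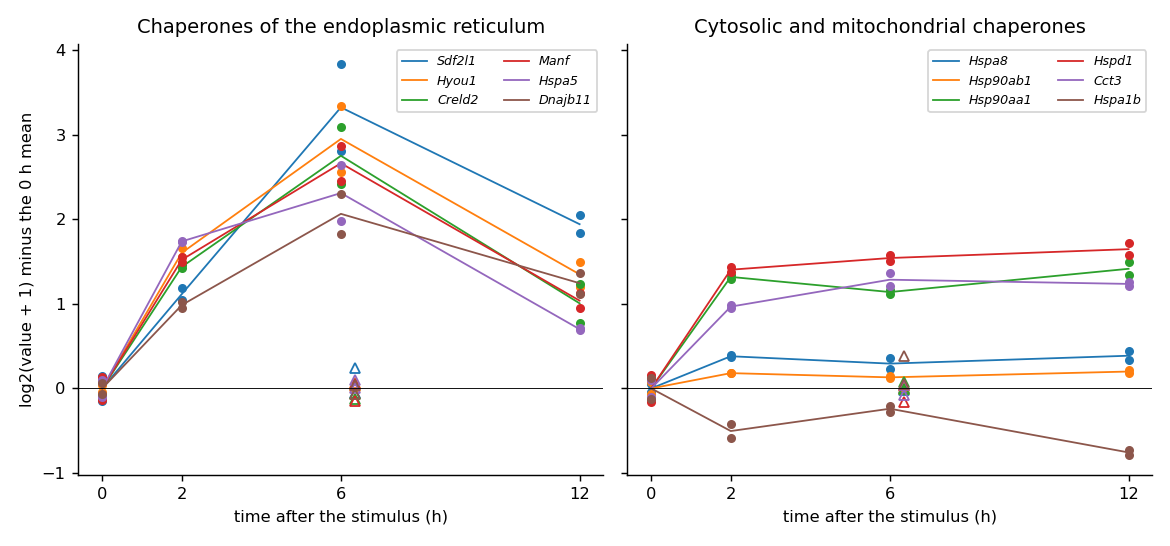
Log2(value + 1) minus its 0 h mean (vertical axis) against hours after the stimulus for chaperones of the endoplasmic reticulum (left) and of the cytosol and mitochondria (right); points are single libraries of 0 h and of serum, lines join group means and open triangles are the 6 h doxycycline libraries, drawn beside 6 h. The genes on the left were taken from the chaperones that met the rule for highest at 6 h. Their maximum at 6 h of serum follows from that choice. The triangles on the left lie near 0.

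A promoter element known from such chaperone genes is the endoplasmic reticulum stress element, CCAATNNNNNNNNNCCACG. It was searched on both strands of the same RefSeq windows, and 2 of the windows that held it also held a CArG box. It was present in 39 of 32851 windows (0.119%) and in 7 of 44 windows (15.9%) of the 36 chaperones that had one. Because the element is known from such genes, this share is a description. It is no test and not evidence of binding. The 7 genes were Calr, Canx, Creld2, Dnajc3, Hsp90b1, Hspa5 and Pdia6. Of these, 4 are shown in the direction of the gene, the element in capitals, because they carry it in either orientation; in Calr and Creld2 the capitals hold the reverse complement.
Hspa5, chr2:34772005-34772063, gene on the + strand: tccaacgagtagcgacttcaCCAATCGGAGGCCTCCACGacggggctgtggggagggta
Creld2, chr15:88819500-88819558, gene on the + strand: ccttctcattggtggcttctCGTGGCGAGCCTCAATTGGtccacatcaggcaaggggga
Calr, chr8:84847055-84847113, gene on the - strand: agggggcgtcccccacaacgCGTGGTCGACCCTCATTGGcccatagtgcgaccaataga
Pdia6, chr12:17266471-17266529, gene on the + strand: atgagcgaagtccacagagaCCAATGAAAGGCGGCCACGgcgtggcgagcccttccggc
All 7 genes rose at 6 h, as did 36 of all 43 measured chaperones. Calr had an estimated log2 change of 1.29, Canx of 1.14, Dnajc3 of 1.99, Hsp90b1 of 1.84 and Pdia6 of 1.98. Chaperones with large rises but no match in their window, or no window, included Sdf2l1, Hyou1 and Manf.

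The other genes ranked highest at 6 h were of mixed function. Tubb3, a beta tubulin best known from neurons, stood at 86 and 138 at 0 h, 296 and 205 at 2 h, 651 and 790 at 6 h and 152 and 273 at 12 h. Plxna4, a semaphorin receptor, stood at 231 and 189, 344 and 296, 1097 and 1558 and 430 and 516 in the same order. For both the 6 h libraries were clear of all others. Lpin3, a phosphatidate phosphatase, exceeded 0 h by 2.12, 2 h by 1.53 and 12 h by 1.36 on the log2 scale. Gfra1, a receptor for the glial cell line-derived factor, did so by 1.59, 1.26 and 2.06, and Lmod1, which nucleates actin filaments, by 2.57, 1.49 and 1.23. The largest adjusted p among these 3 genes was 0.0051, for Lmod1 against 12 h. The YAP and TEAD list had 5 of 18 members highest at 6 h (Ajuba, Amotl2, Arhgef17, Dlc1 and Lats2), and 3 with equal totals or without replicate 2 of 6 h. Arhgef17, at 0.27 against rest, was at -0.06 under quantile normalization.

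Genes with a minimum at 6 h included enzymes of lipid handling and a caspase. Casp12, a caspase linked to the endoplasmic reticulum, stood at 3972 and 4065 at 0 h, 1218 and 1253 at 2 h, 349 and 362 at 6 h and 1228 and 1113 at 12 h. Lpl, lipoprotein lipase, stood at 494 and 380, 308 and 404, 128 and 100 and 532 and 587, so that the 12 h libraries were back at or above rest. Ankrd44, named above, differed from its 12 h level by -2.02, and Cdo1 by -1.73. Negr1, a cell adhesion protein, was -2.08 against rest, and Vav3, a guanine nucleotide exchange factor, -2.53. Prex2, an exchange factor for Rac, was -1.62 against rest and -2.33 against 12 h. Ccn5, of the CCN family, stood at 1141 and 399 at rest, where its libraries differed by more than 2-fold, and at 248 and 216 at 6 h. Among the lists, fatty acid synthesis had 6 of 19 members lowest at 6 h (Acss2, Elovl5, Elovl6, Fads1, Fads2 and Scd1). That count was 4 with equal totals and 4 under quantile normalization.

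Lipid synthesis fell while enzymes for nucleotides and glycolysis mostly rose. Of 27 genes of sterol synthesis and uptake 20 fell and 2 rose, with a median log2 change of -0.60 (-0.40 without replicate 1 of 6 h). Dhcr7, a late enzyme of cholesterol synthesis, dropped from 2022 and 2043 to 735 and 519 (log2 change -1.72, adjusted p 5.86e-09) and Lss, lanosterol synthase, from 9573 and 10478 to 3121 and 4254 (log2 change -1.46, adjusted p 5.65e-07). Mylip, a ubiquitin ligase of the list, rose (0.50). Fatty acid genes fell in 10 of 19 cases and rose in 3 (5 without replicate 1 of 6 h). Acss2, which makes acetyl-CoA from acetate, dropped from 942 and 930 to 93 and 92, an estimated log2 change of -3.33 (SE 0.17, adjusted p 1.53e-11). The desaturases Fads2 (-1.46) and Scd1 (-0.82) fell.

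Of 27 enzymes of purine, pyrimidine and one-carbon metabolism 19 rose and 4 fell (median 1.04). The mitochondrial folate enzymes Mthfd2 (2.33) and Shmt2 (2.02) and the pyrimidine enzyme Cad (1.50) rose. The pair of CTP synthases parted, as Ctps rose (1.56) and Ctps2 dropped from 3367 and 3257 to 951 and 849 (log2 change -1.88, adjusted p 6.23e-12). Against 12 h, 14 of the 27 were lower at 6 h. Glycolysis genes rose in 14 of 24 cases and fell in 8. Hexokinase 2, Hk2, went from 539 and 528 to 4208 and 4185 (log2 change 2.97, adjusted p 1.57e-09), with Ldha (1.52) and the glucose carrier Slc2a1 (1.32) higher. Pdk2 (-2.41) and Pdk4 (-2.10), kinases that close pyruvate dehydrogenase, fell.

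Response genes of the factor ATF4, only some of which serve amino acid supply, rose in 22 of 28 cases and fell in 1 (median 0.87). Asns was at 2.28, Stc2 at 2.49 and the carrier Slc7a5 at 1.63. Ddit4, an inhibitor of mTORC1, was the fall (-1.29), and Ddit3, the factor CHOP, was at 0.16 (adjusted p 0.513). In 28 genes replicate 2 exceeded replicate 1 at 6 h 27 times, and the rises numbered 27 without replicate 1 and 17 without replicate 2. Part of this list was higher in the doxycycline control than at 0 h, as Chac1 (log2 change against rest 1.76, adjusted p 0.0142) and Trib3 (1.87, adjusted p 0.046) were among the 15 genes higher in that control. Doxycycline and the 6 h of added culture cannot be told apart there. With that control in place of 0 h the 6 h serum difference was -0.95 for Chac1 (adjusted p 0.0102) and -0.17 for Trib3 (adjusted p 0.686). Against the doxycycline control 16 were higher and 2 lower.

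In the MYC network Myc and its partner rose and several of its antagonists fell. Myc went from 1723 and 1865 to 4745 and 3449 (log2 change 1.17, adjusted p 1.94e-06), and its partner Max rose (1.24). Mxi1, which competes with MYC for MAX, dropped from 1943 and 1853 to 309 and 324 (log2 change -2.58, adjusted p 6.63e-11), and Mxd4 (-1.06) and Mnt (-0.63) fell. In the whole list of 13 genes 5 rose and 7 fell, the falls numbering 4 without replicate 2 of 0 h and 4 without replicate 1 of 6 h.

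Of the G1 cyclin genes Ccnd1, Ccnd2 and Ccne1 rose by 6 h, while Ccnd3 was at -0.03 (adjusted p 0.783) and Ccne2 at 0.32 (adjusted p 0.268). Among 22 cyclins, kinases, E2F factors and pocket proteins 9 rose (40.9%) and 6 fell (27.3%), near the 36.5% higher and 31.0% lower over all genes. With a tested 2-fold minimum 0 were higher and 3 lower. Their median of 0.19 was -0.03 with equal totals, 0.0068 without replicate 1 of 0 h and 0.10 without replicate 1 of 6 h. Ccnd1, cyclin D1, went from 1724 and 2535 to 6760 and 4971, an estimated log2 change of 1.47 (SE 0.24, adjusted p 2.76e-05). Ccne1, cyclin E1, went from 281 and 445 to 1128 and 915 (log2 change 1.52, adjusted p 7.14e-06), still below its 12 h level of 3569 and 2763. E2f3 (1.31), Cdc25a (1.25) and Ccnd2 (1.23) rose. The retinoblastoma gene Rb1 dropped from 642 and 605 to 152 and 205 (log2 change -1.81, adjusted p 1.49e-08), and its relative Rbl2 fell (-1.65). The factors E2f1 and E2f2 fell (-0.63 and -1.67). Of the 22, 18 were lower at 6 h than at 12 h and 2 higher.

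Of the 7 listed CDK inhibitors only 4 were in the table, where 3 fell and 1, Cdkn1a, rose. Cdkn1b, which encodes p27, dropped from 5312 and 5016 to 2022 and 2614 (log2 change -1.17, adjusted p 8.2e-09) and Cdkn2c, which encodes p18, from 6887 and 7380 to 2456 and 2748 (log2 change -1.46, adjusted p 8.21e-11). Cdkn2d changed by -1.20, and Cdkn1a, which encodes p21, rose by 0.65 (adjusted p 2.09e-05). Of 27 p53 targets, Cdkn1a included, 10 rose (37.0%) and 7 fell (25.9%), again close to the shares of all genes, and the median of 0.12 was -0.10 with equal totals, where 6 rose. Aen (2.03) and Tigar (1.55) rose, while Bbc3, the BH3-only protein PUMA, fell (-2.57, adjusted p 1.04e-08). Another BH3-only gene, Bcl2l11, which belongs to no list and was picked after its values were seen, stood at 1543 and 1328 at rest and 198 and 166 at 6 h (log2 change -2.97, adjusted p 1.04e-11).

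Of 57 DNA replication genes 14 rose and 22 fell at 6 h, with a median log2 change of -0.15, and 55 of them were lower than at 12 h (median difference -2.12). Cdc6, which loads the replicative helicase, went from 226 and 351 to 527 and 526 (log2 change 0.90, adjusted p 0.00116) and then to 3069 and 2615 at 12 h. Mcm3, a helicase subunit, was at 1483 and 2453 at rest, 2713 and 2199 at 6 h and 12669 and 11804 at 12 h, so that the 6 h libraries lay within the resting range or just above it. Origin and loading genes Orc2 (1.51), Cdt1 (1.05) and Orc1 (0.81) rose, and the primase Prim1 (-1.36), the kinase Cdc7 (-1.28) and the ligase Lig1 (-1.27) fell. Replicate 2 stood above replicate 1 at 0 h in 54 of 57 genes. Without replicate 2 of 0 h the list had 21 higher and 12 lower (median 0.15), and without replicate 1 it had 9 and 29 (median -0.45). Against the doxycycline control 23 were higher and 8 lower.

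For genes of G2 and mitosis the count against rest turned on single libraries. Of 50, 18 fell and 1 rose, Bub3 (0.49), with a median log2 change of -0.48. The falls numbered 29 with equal totals, 36 without replicate 1 of 0 h, 1 without replicate 2 of 0 h, 1 without replicate 1 of 6 h and 34 without replicate 2 of 6 h. Mki67, the proliferation antigen, shows the pattern, at 5675 and 10406 at rest, 4416 and 8340 under doxycycline and 2336 and 4901 at 6 h of serum. Its libraries did not overlap between 0 h and 6 h of serum, but those of 6 h overlapped with the doxycycline control. Against that control 8 members were lower and 1 higher (median -0.12), and against 12 h of serum 31 were lower and 0 higher. Replicate 2 stood above replicate 1 in 50 members under doxycycline, but in 2 at 2 h and 8 at 12 h of serum. With a replicate block 20 members fell, and 21 with a block within each line. Beyond this, the part of the replicate order in the result was not tested.

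**Figure D4:**
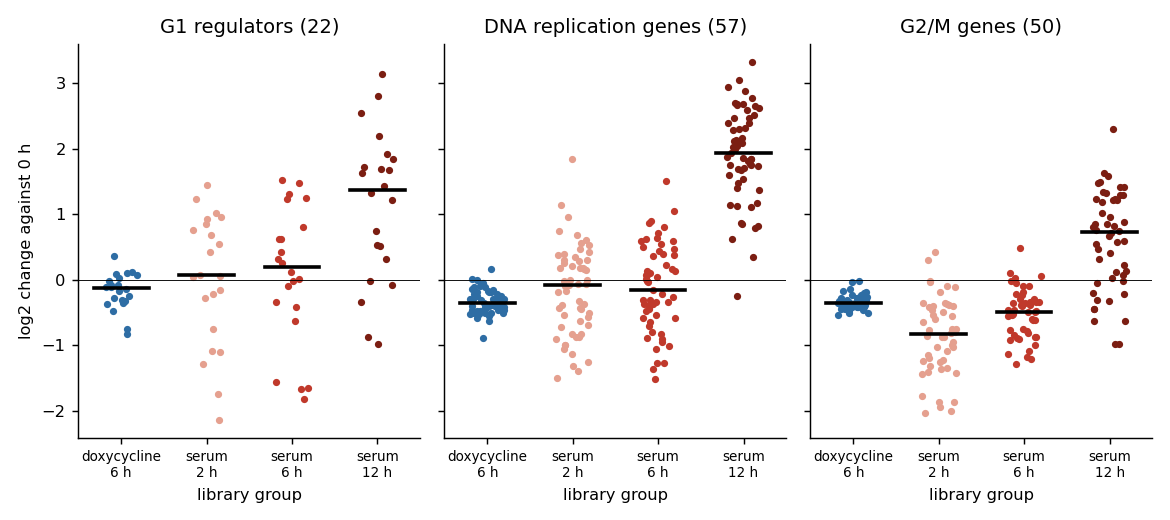
Log2 change against 0 h (vertical axis) of each gene of 3 cell cycle lists in 4 groups of the EV line: 6 h of doxycycline and 2, 6 and 12 h of serum, with the number of genes in brackets, 1 point a gene and black bars at the medians; all 4 changes share the 0 h libraries. The medians of replication genes are -0.08, -0.15 and 1.93 at 2, 6 and 12 h of serum, and those of G2/M genes -0.83, -0.48 and 0.73.

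Genes that mark starvation or are targets of the FOXO factors fell together. Of 38 measured 27 fell and 3 rose, with a median log2 change of -1.11, and the counts of falls were between 26 and 28 when any 1 of the 4 libraries was left out. Ccng2, an unusual cyclin of arrested cells, dropped from 2442 and 2159 to 190 and 112, an estimated log2 change of -3.97 (SE 0.23, adjusted p 7.03e-11). Fbxo32, the ubiquitin ligase atrogin-1, dropped from 712 and 648 to 93 and 81, an estimated log2 change of -2.95 (SE 0.15, adjusted p 2.3e-11). Gas1, a membrane protein named for growth arrest, dropped from 66301 and 55709 to 10510 and 9627 (log2 change -2.59, adjusted p 1.22e-11). None of these 6 h libraries reached a resting library. Foxo3 itself (-1.51), Sesn3 (-2.50), Irs2 (-1.37) and Trp53inp1 (-2.66) fell, and the rises were Ccnd2, Cited2 (0.85) and Sod2 (0.58). Txnip, a brake on glucose uptake, was -1.88 against rest but higher than at 2 h by 3.22 (adjusted p 1.04e-08). Lysosome and autophagy genes fell in 21 of 47 cases and rose in 8 (2 with equal totals and 4 under quantile normalization), with their master regulator Tfeb at -1.44 and Map1lc3b at -1.34.

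The circadian clock was moved in both directions. Hlf, an output factor of the clock, dropped from 3302 and 1941 to 143 and 25, an estimated log2 change of -5.37 (SE 0.54, adjusted p 9.13e-08), and Dbp, of the same family, from 390 and 363 to 7 and 17 (log2 change -4.97, adjusted p 3.44e-09). Per3 dropped from 1319 and 1036 to 126 and 92 (log2 change -3.43) and Rora, which activates Arntl, from 1644 and 1395 to 126 and 84 (log2 change -3.87). The third member of the Hlf family, Tef, fell too (-1.81), as did the repressor Nr1d2 (-1.65). Core activators rose, Clock by 1.10 (adjusted p 6.43e-08) and Arntl by 0.95 (adjusted p 1.4e-06), with Cry1 (1.00) and the ubiquitin protease gene Usp2 (1.45). Per1 (-0.57) and Per2 (-0.69) fell below rest. In the list of 19, 10 fell and 6 rose, and 14 were lower at 6 h than at 2 h against 0 higher. Nr1d2 and Rora were among the genes lowest at 6 h.

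**Figure D5:**
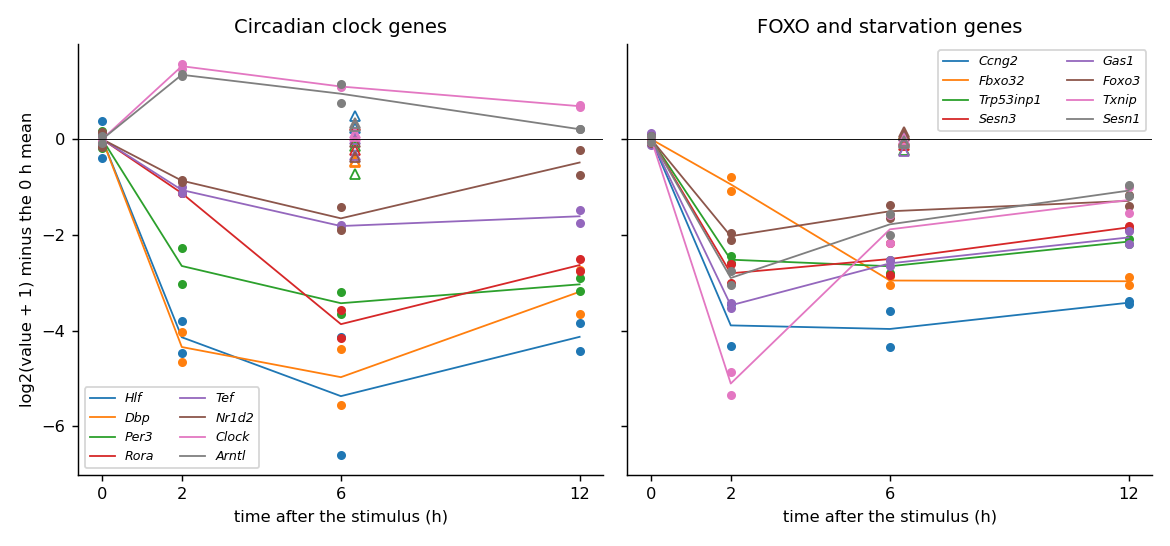
Log2(value + 1) minus its 0 h mean (vertical axis) against hours after the stimulus for 8 clock genes (left) and 8 FOXO or starvation genes (right); points are single libraries of 0 h and serum, lines join group means and open triangles are the 6 h doxycycline libraries, drawn beside 6 h. At 6 h of serum Clock and Arntl lie above 0 and the other 14 genes below it, while the triangles stay near 0.

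Interferon-stimulated genes were lower after serum. Of 22 measured 17 fell and 0 rose, with a median log2 change of -1.06, and the same list had 18 lower against the doxycycline control. Gbp2, an interferon-inducible GTPase, dropped from 626 and 651 to 106 and 106 (log2 change -2.58, adjusted p 4.04e-10), with the doxycycline libraries at 823 and 972. Ifi44 (-2.98), Xaf1 (-2.83), Irf1 (-1.99) and Stat2 (-1.76) fell.

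In absolute counts the largest shifts included genes of matrix, cytoskeleton and translation. They also included chaperones of the endoplasmic reticulum (Hspa5, Hsp90b1 and Calr, gains) and genes such as Pdgfra and Gas1 (losses). The 20 genes with the largest gains in mean normalized counts held 14.6% of the sum of all gains. Among them Il1rl1, the interleukin 33 receptor ST2, picked like the next pair after its values were seen, went from 36745 and 39604 to 151350 and 107056 (log2 change 1.74, adjusted p 7.68e-08). The largest losses in counts were those of the translation elongation factors Eef1a1, from 513548 and 561392 to 296921 and 367316 (log2 change -0.70, adjusted p 0.000191), and Eef2, from 381353 and 379451 to 182711 and 205456 (log2 change -0.97, adjusted p 5.68e-07). Eef1a1 has processed pseudogenes that can share its reads.

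The authors' deposited table for 6 h of serum lists 795 genes, 298 higher and 497 lower, and 473 of them were in the table of normalized counts. Of these 473, limma called 472 in the same direction. Rn7sk, the RNA of the 7SK particle, was the exception. Over all genes limma called 7563 (67.5%), most of which the authors' deposited table does not list. The median absolute difference between the log2 changes in the authors' deposited table and those from limma was 0.01 over the 473 genes. Its label names the EV line for both the 6 h and the 0 h samples. These were taken to be the libraries used here, so this is no independent check.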

How the data were processed

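RNA-seq of 22 NIH/3T3 libraries in 11 groups of 2 was used. Per the submitters' processing notes, FastQC, Trimmomatic, HISAT2, featureCounts and DESeq2 were used with the genome build mm10; their versions and settings are not given in the sources used here. The deposited values are a score: normalized counts that the authors rounded to whole numbers; the lowest mean of a gene over all libraries was 99.6. Raw counts were not analysed here, so sequencing depth is not known from these values and no counting interval is given. Gene identifiers matched GENCODE M21 with the same version for 10977 of 11208 genes. The authors' deposited table of comparisons gives log2 fold changes and adjusted p-values.

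For the tests, limma 3.58.1 (R 4.3.3) was run on log2(value + 1): 1 mean per group over all 22 libraries, a trend of variance on mean, 11 residual degrees of freedom, and Benjamini-Hochberg adjustment over all genes with a threshold of 0.05. The contrasts were serum 6 h against 0 h, doxycycline 6 h, serum 2 h and serum 12 h, all in the EV line; the first and the changes at other times share the 0 h libraries. Tables and figures were made with matplotlib 3.10.9, pandas 2.3.3, scipy 1.17.1 and numpy 2.4.6 under Python 3.11.15. The fit was tested on simulated data. Named genes were the 12 largest rises and falls and the 8 most clearly highest and lowest at 6 h, whose higher group averaged 200 or more and whose libraries did not overlap, together with members of 31 gene lists. The lists and the named members were chosen with earlier results of these data known. Some genes that the rule or the lists hold are not reported here. Alternatives covered scaling, pseudocount, filters, the samples fitted, single libraries, a replicate block and a tested 2-fold minimum.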

Additional observations from a re-analysis of the deposited data

Results flagged for a closer look

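Among the genes named above, some had changes of opposite sign at 6 h and at another time of serum, each change past the threshold, with a limma test of the difference between the times that passed as well. Against 2 h, the difference of log2 values (6 h minus 2 h) was -2.92 for Per2, -1.16 for Per1, -1.83 for Ddit4, -1.66 for Smad3, -1.37 for Pxn, -1.89 for Itga11, -2.24 for Fgfr1, -3.61 for Aspn and -0.95 for Elovl5. All 9 were above rest at 2 h and below it at 6 h. Ajuba moved the other way and was 0.83 higher at 6 h than at 2 h.

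Against 12 h, the difference (6 h minus 12 h) was -3.86 for E2f2, -2.05 for E2f1, -3.20 for Lig1, -2.83 for Prim1, -2.12 for Cdc7, -2.33 for Prex2 and -0.88 for Elovl5, all 7 below rest at 6 h and above it at 12 h. Cry1 (1.45) and Ajuba (0.86) were above rest at 6 h and below it at 12 h. The times share their 0 h libraries, and no explanation was weighed. Group sizes of 2 allow no check for single outlying libraries.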

How the results depend on the processing

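Of the 246 named genes 234 passed against rest, and all 234 kept direction and side of the threshold with a pseudocount of 8, no filter, no variance trend, the EV line alone or a replicate block. A tested 2-fold minimum left 1079 genes (552 higher, 527 lower) against 0 h, 1083 (547 and 536) against doxycycline, 305 (96 and 209) against 2 h and 227 (26 and 201) against 12 h, with 0 genes highest and 3 lowest at 6 h. With equal totals 1793 genes were lower than at 2 h and 1392 higher than at 12 h. Fitting only the groups compared left 1530 genes higher than at 12 h, 245 highest and 189 lowest at 6 h. Leaving out single libraries gave 6763 to 6991 genes against rest and 221 to 431 highest at 6 h, the lowest value without replicate 2 of serum 6 h; without the EV doxycycline 2 h libraries 7512 were called. Same-numbered replicates correlated weakly in their deviations (r = 0.139 over genes for 6 h and 0 h, 0.131 with doxycycline, -0.0905 with 2 h and 0.189 with 12 h) and the labels name no shared origin; with the replicate block 7643 genes were called (4124 higher, 3519 lower), and 7623 with a block within each line.

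Under another scaling the list medians that turned were those of G1 regulators (-0.025 with equal totals), matrix genes (-0.17 with equal totals, -0.13 with quantile normalization), proteases (-0.18 and -0.16) and p53 targets (-0.10 with equal totals). With a single library left out, the median of DNA replication genes turned without replicate 2 of 0 h (0.15), and those of matrix genes and of proteases turned without replicate 2 of 0 h (-0.0026 and -0.010) and without replicate 1 of 6 h (-0.016 and -0.13). Single libraries also moved the medians of G2/M genes (-0.94 to -0.088) and ribosomal protein genes (-0.30 to -0.10). Equal totals and then quantile normalization gave medians of 0.25 and 0.23 for YAP targets, 0.35 and 0.33 for activin and TGF-beta genes, -0.42 and -0.47 for ribosomal protein genes and -0.37 and -0.10 for DNA replication genes, and quantile normalization gave 0.75 for chaperones, 0.47 for the proteasome and -0.68 for interferon-stimulated genes. Of genes that passed, Arhgef17 turned with quantile normalization (-0.065), and Chac1 (-0.95) and Trib3 (-0.17) turned with doxycycline libraries in place of 0 h. Among genes that had not passed, equal totals and then quantile normalization gave -0.084 and -0.13 for Hsp90ab1 and -0.21 and -0.27 for Zyx. Ddit3 was -0.051 with equal totals and -0.21 against doxycycline, and Fos 0.31 with quantile normalization and 0.19 against doxycycline. Over the libraries left out singly, Ccnd3 ran from -0.091 to 0.041, Ddit3 from -0.35 to 0.68, Fos from -0.93 to 0.27, Mcm3 from -0.0062 to 0.72 and Zyx from -0.15 to 0.16. The cause of these changes was not tested. Values are normalized and rounded, so sampling error at low levels could not be separated from other spread, and 2 libraries a group limit every test.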

Other observations

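The authors' deposited table for 6 h of serum holds 322 genes that are not among the 11208 of the normalized count table, 103 higher and 219 lower. Their levels per library were not analysed here, and the values below are the log2 fold changes of the authors' deposited table. On the higher side it lists the keratin gene Krt8 at 7.75, the skeletal muscle actin gene Acta1 at 7.68, the protease inhibitor gene Serpinb2 at 6.11, the collagenase gene Mmp13 at 5.48, the phosphatase gene Dusp2 at 4.43 and Tagln, which encodes the actin-binding protein transgelin, at 2.29. On the lower side the authors' deposited table lists the elastin gene Eln at -2.10, the interferon-inducible GTPase gene Gbp3 at -4.70 and the metalloprotease gene Adamts15 at -6.87. These genes were chosen after their values were seen.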
